A study of Mus musculus with 2 samples.

Results

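TAMo-only promoter peaks were stretches of open chromatin at gene starts that were called in mouse CD8+ T cells cultured with TAMos and had no counterpart in the vehicle culture. They were chosen from the peak lists themselves: a member was a distinct TAMo interval that overlapped a window reaching 1 kb to each side of an autosomal protein-coding gene's start site (GENCODE M21, mm10) and overlapped no vehicle interval by 1 bp or more. Of 179414 distinct TAMo intervals, 24552 lay at a promoter, and 3861 of these, 15.7%, were members. Over all 179414 TAMo intervals, at promoters and elsewhere, 39.5% overlapped no vehicle interval. The members lay at 3353 of 20807 genes, 16.1%. They fell into 857 intervals at 689 genes, 3.31% of all genes, that had no vehicle promoter peak at all, and 3004 intervals at 2664 genes that had a vehicle promoter peak and an additional TAMo site; 7 of the 857 intervals also touched a gene of the second kind. Because the presence and absence of calls chose the members, the numbers of this paragraph are a description with no test.

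The study measured chromatin accessibility by ATAC-seq, in which a transposase cuts open DNA and leaves sequencing adapters there, in OT-I CD8+ T cells with the genotype label WT, whose transgenic T cell receptor recognises the ovalbumin peptide OVA257-264. One culture received vehicle and the other received TAMos, and both received the peptide for 48 h. TAMos are given as CD11b+ Ly6G- Ly6C-high cells from the spleens of mice carrying LLC tumours, which arise from a Lewis lung carcinoma line; the sources used here do not give their age, number or pooling. After culture, T cells were sorted and about 50000 viable CD8+ T cells entered each library, with 1 library per culture, so nothing below has a replicate check and no p-value is given.

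A promoter is the stretch around a transcription start site where general transcription factors and RNA polymerase assemble. Promoters of widely used genes are often rich in CpG dinucleotides and open in many cell types, whereas promoters of tissue-restricted genes more often lack CpG islands and open in the cells that use them. In T cells, factors of the AP-1, NFAT, NF-kB, Runx and Ets families bind to open promoters and enhancers after stimulation through the receptor. An ATAC-seq peak marks a stretch where the transposase cut more often than nearby, and a peak caller reports the summit, the position of highest read coverage. A missing call is not a closed site: read coverage of the vehicle library was not measured at the members.

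The peak lists carried T cell promoters in both libraries. All 18 T cell identity genes, Cd3e, Cd8a, Cd8b1, Lck and Zap70 among them, had a promoter peak in each. Myeloid identity genes, which mark cells like those added to the culture, had a promoter peak at 15 of 37 genes with vehicle and at 20 of 37 with TAMos, with a summed summit coverage of 2056 and 4236 reads. The TAMo library was the deeper one. Its most frequent local background was 5.80 reads against 4.71 reads for vehicle, a ratio of 1.23, and after scaling by this ratio the summed myeloid coverage was 1.67 times that of the vehicle library, against 1.03 times for the T cell list. A gene with no call enters these sums as 0. No promoter peak was listed in either library for Lyz2, Cebpe, Ly6c2, Ly6g, S100a8, S100a9, Mpo, Elane, Csf3r, Ccr2, Tyrobp, Fcer1g, Tlr4, Pirb and Msr1. The part of carried-over TAMos in the members was not tested. In bulk chromatin, strong accessibility in a few cells and weak accessibility in every cell cannot be told apart.

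Promoter sequences of members at genes with no vehicle promoter peak are shown first, as examples of sites where the TAMo summit lay inside the 250 bases before the gene's start; most members had their summit elsewhere. They are RefSeq sequences on GRCm38.p6, the assembly behind mm10, and each is the 250 bases before the RefSeq start, read 5′ to 3′ on the gene's strand. These 6 were picked, after their values were seen, from the 8 strongest members of this kind among those whose summit lay in the 250 bases before a RefSeq start read here, for their genes' known roles and for their motif matches. Gzme encodes granzyme E, a serine protease of cytotoxic lymphocyte granules. Tnfrsf18 encodes GITR, a costimulatory receptor of activated and regulatory T cells. Skint11 belongs to the Skint family, whose founding member in mouse skin and thymus supports the maturation of epidermal γδ T cells. Abhd16b belongs to the α/β-hydrolase family, Nts encodes the peptide neurotensin and Aox4 an aldehyde oxidase. Capitals mark every match, on either strand, to 11 short motifs: TGACTCA for AP-1, TGTGGT for Runx, GAGGAAGT for PU.1, CCGGAAGT for Ets, TTGCNNAA for C/EBP, AGATAA for the GATA family, GGGANTTCC for NF-kB, CACGTG for the E-box, GGGCGG for Sp1 and Klf, CCAAT for the box of that name and TATAAA for the TATA box. The PU.1 and Ets letters share GGAAGT; no matches overlap in the sequences shown.
Gzme, chr14:56120626-56120875, minus strand: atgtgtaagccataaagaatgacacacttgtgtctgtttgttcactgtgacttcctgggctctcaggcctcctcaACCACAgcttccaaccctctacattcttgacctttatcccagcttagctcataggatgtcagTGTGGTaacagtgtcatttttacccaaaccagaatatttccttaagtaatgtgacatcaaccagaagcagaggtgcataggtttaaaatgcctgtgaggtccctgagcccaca
Tnfrsf18, chr4:156026072-156026321, plus strand: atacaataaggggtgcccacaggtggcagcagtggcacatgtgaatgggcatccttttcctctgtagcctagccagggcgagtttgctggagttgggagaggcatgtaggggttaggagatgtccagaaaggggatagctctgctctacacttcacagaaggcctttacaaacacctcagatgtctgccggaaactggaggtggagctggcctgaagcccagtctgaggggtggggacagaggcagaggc
Skint11, chr4:114163134-114163383, plus strand: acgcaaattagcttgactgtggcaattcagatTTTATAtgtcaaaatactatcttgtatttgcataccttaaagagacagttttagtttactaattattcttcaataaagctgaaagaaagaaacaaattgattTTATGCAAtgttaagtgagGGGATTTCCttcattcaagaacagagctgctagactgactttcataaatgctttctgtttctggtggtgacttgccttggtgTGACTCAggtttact
Abhd16b, chr2:181492956-181493205, plus strand: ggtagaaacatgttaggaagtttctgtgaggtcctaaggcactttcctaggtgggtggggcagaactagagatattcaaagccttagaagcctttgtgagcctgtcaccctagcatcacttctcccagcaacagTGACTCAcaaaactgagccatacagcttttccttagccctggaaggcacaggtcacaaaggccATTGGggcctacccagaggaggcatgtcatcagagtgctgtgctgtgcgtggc
Nts, chr10:102490419-102490668, minus strand: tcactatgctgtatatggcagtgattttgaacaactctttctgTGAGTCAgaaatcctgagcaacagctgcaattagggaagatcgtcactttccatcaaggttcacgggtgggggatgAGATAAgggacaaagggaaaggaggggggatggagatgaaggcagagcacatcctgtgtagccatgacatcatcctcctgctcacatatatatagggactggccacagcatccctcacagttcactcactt
Aox4, chr1:58210147-58210396, plus strand: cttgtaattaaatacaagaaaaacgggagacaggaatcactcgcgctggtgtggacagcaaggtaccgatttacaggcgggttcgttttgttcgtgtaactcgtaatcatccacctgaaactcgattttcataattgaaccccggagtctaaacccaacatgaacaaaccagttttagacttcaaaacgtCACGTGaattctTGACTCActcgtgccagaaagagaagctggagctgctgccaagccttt

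In the Gzme sequence the capitals are Runx matches beginning 175 and 113 bases before the start, and the summit, of 162 reads, lay 139 bases before it, between the matches. The Skint11 summit (133 reads) lay 28 bases before the start, and the nearest match, AP-1, began 15 bases before the start, with an NF-kB match at 97 bases, C/EBP at 116 bases and a TATA box at 218 bases. For Abhd16b (323 reads) the AP-1 match began at 116 bases and a CCAAT box at 53 bases, on either side of the summit at 60 bases. Aox4 (96 reads) had an E-box at 60 bases and AP-1 at 48 bases, with the summit at 12 bases. At Nts (94 reads) the AP-1 and GATA matches, at 207 and 131 bases, lay farther from the summit at 16 bases. The sequence of Tnfrsf18 (334 reads, summit at 39 bases) holds none of these 11 strings, which says nothing about factors that bind other letters. For comparison, 15687 RefSeq promoter windows of 300 bases were taken, 1 per gene. Where a gene's windows differed in kind, one under a member came first, then one with no peak, then one under a shared peak. In these windows AP-1 letters occurred in 4.60%, Runx in 15.1%, NF-kB in 1.88% and C/EBP in 10.3%. GATA letters occurred in 9.73%, the E-box in 7.93%, the CCAAT box in 38.3% and the TATA box in 13.1%.

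RefSeq windows were matched by symbol for 491 of the 689 genes with no vehicle promoter peak and for 2024 of the 2664 genes with an additional site. Both are under 80%, so a check of base composition or motifs over these gene sets is void. What follows describes only windows that were read and that an interval of the named kind overlapped, with 1 window per gene and kind. A window touched by a shared peak counts as shared only. CpG-rich windows, with an observed over expected CpG ratio above 0.6, made up 25.6% (95% Wilson interval 20.2 to 31.7%) of 219 windows under members at genes with no vehicle promoter peak, 30.4% (23.7 to 37.9%) of 158 windows under additional sites, and 76.7% (75.8 to 77.5%) of 9737 windows under shared peaks. Windows with no peak in either library were CpG-rich in 8.94% (8.26 to 9.67%) of 6318. In CpG content the member windows read here thus lay between the shared windows and the windows with no peak.

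AP-1 letters were found in 30 of the 219 windows under members at genes with no vehicle promoter peak, 13.7% (9.77 to 18.9%). They were found in 6.96% (3.93 to 12.04%) of windows under additional sites, in 3.80% (3.44 to 4.20%) of windows under shared peaks and in 8.05% (4.85 to 13.1%) of 174 windows under vehicle-only peaks. Among CpG-poor windows alone the shares were 15.3% (10.6 to 21.7%), 10% (5.68 to 17.0%), 8.54% (7.46 to 9.76%) and 11.2% (6.53 to 18.6%) in the same order. Among CpG-poor windows the interval for members at genes with no vehicle promoter peak overlapped those for additional sites and vehicle-only peaks and lay above that for shared peaks. CpG-poor windows with no peak in either library held AP-1 letters in 5.81% (5.23 to 6.44%). PU.1 letters, bound by a factor of myeloid and B cells, were in 3.20% (1.56 to 6.45%) of the no-vehicle windows, and Runx letters in 19.2% (14.5 to 24.9%). In the comparison set of 1 window per gene they were in 3.23% and 15.1%. C/EBP letters, of a factor family of myeloid and other cells, were in 15.5% (11.3 to 20.9%) of the no-vehicle windows, 7.43% (6.92 to 7.96%) of the shared windows and 14.2% (13.4 to 15.1%) of the windows with no peak in either library. Sp1/Klf letters were in 32.0% (26.1 to 38.4%) of the no-vehicle windows and 68.5% (67.6 to 69.5%) of the shared windows. None of these differences was tested, and a match to a few letters does not show a bound site.

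Members were mostly weak peaks. Their summit coverage had a median of 65 reads (quartiles 35 and 115), over a median local background of 19.3 reads, and their −log10 q, the authors' measure of peak strength, had a median of 12.3. Shared TAMo promoter peaks, 20691 in number, had medians of 313 reads and a −log10 q of 165. The median width was 184 bp for members and 586 bp for shared promoter peaks. A single summit was called in 95.8% of members (95.2 to 96.4%) and in 45.6% of shared promoter peaks (44.9 to 46.2%). Only 97 members, 2.51%, were among the 50000 strongest TAMo intervals, which held 59.9% of the shared promoter peaks. These values come from the lists that chose the members.

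How the chance of being a member fell with strength was read from 10 equal classes of all TAMo intervals, ordered by −log10 q. In the strongest class 5 of 7069 promoter peaks were TAMo-only, 0.0707% (0.0302 to 0.165%), and in the weakest class 770 of 1211 were, 63.6% (60.8 to 66.2%). Away from promoters the TAMo-only share ran from 1.01% (0.840 to 1.22%) to 80.6% (80.005 to 81.2%). In each of the 10 classes the promoter share was the lower one, with intervals that did not overlap. At the middle of the range, in the fifth class, it was 13.3% (11.9 to 14.8%) at promoters and 35.3% (34.6 to 36.1%) elsewhere. These shares are the call that chose the members and are a description; peaks of a class still differ in strength, and peak width was not matched.

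**Figure D1:**
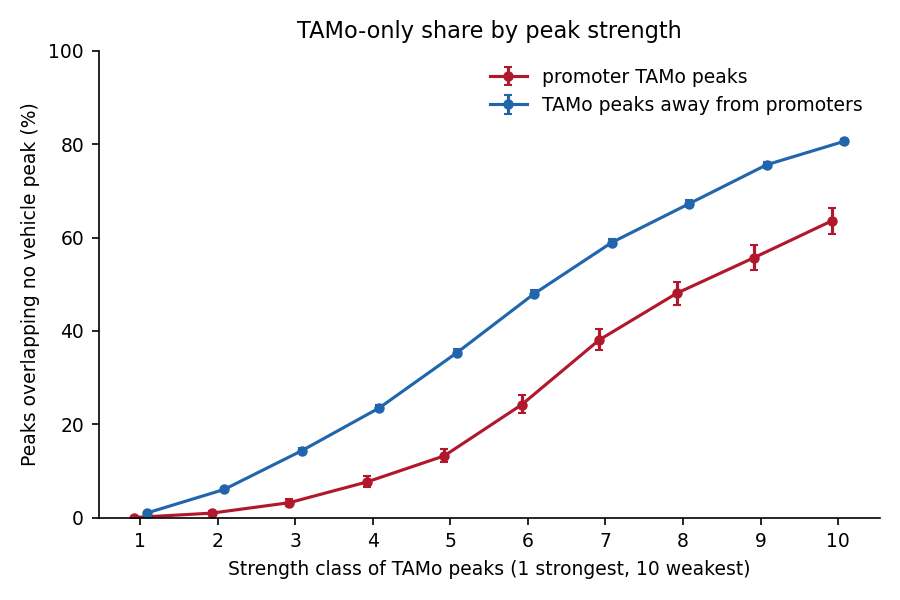
Share of TAMo peaks that overlapped no vehicle peak (%), on the vertical axis, in 10 strength classes from strongest to weakest on the horizontal axis, at promoters (red) and away from them (blue). Points are shares of 1 library and bars are 95% Wilson intervals; the promoter share lies below the other in every class, from 0.0707% to 63.6% against 1.01% to 80.6%.

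Depth and list length moved with the number of members. The TAMo list had 179414 intervals against 127423 in the vehicle list. The reverse kind, vehicle promoter peaks that overlapped no TAMo interval, numbered 1321 of 22390, 5.9%. When only as many TAMo intervals were kept as the vehicle list had, the strongest first, members fell to 1709, genes with no vehicle promoter peak to 310, and vehicle-only promoter peaks rose to 2607, so the order of both counts turned. Vehicle-only promoter peaks had a median summit coverage of 65 reads, a median width of 169 bp and a median −log10 q of 8.99. The members had the same median of 65 reads before depth scaling, but in the deeper library. Which library had more promoter peaks of its own thus depends on list length.

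A lower limit for what the vehicle library could have called came from summits at each library's most frequent background. There, the lowest coverage that was called was 13 reads for vehicle and 14 reads for TAMo. Of the 759 members at that background, 744 (98.0%, 96.8 to 98.8%) had a coverage that, divided by the depth ratio of 1.23, still reached the lowest called vehicle coverage. At least 2 times that coverage was reached by 240 (31.6%, 28.4 to 35.0%), and at least 4 times by 33 (4.35%, 3.11 to 6.04%). Among these, members at genes with no vehicle promoter peak numbered 482, of which 160 reached 2 times and 26 reached 4 times. Members here had to be called in TAMo, at 14 reads or more, so the 98.0% was largely set by that calling. After depth scaling most of these summits lay at less than 2 times the lowest vehicle call. Whether depth accounts for the missing vehicle calls was not tested.

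At genes with no vehicle promoter peak the 857 intervals stood on a low background. Their median coverage was 34 reads (quartiles 25 and 55) and their median background 5.80 reads, and 56.2% (52.9 to 59.5%) lay at the library's most frequent background. The rule keeps vehicle intervals out of these promoters; the median distance to the nearest one was 7079 bp, and 58.9% (55.6 to 62.2%) lay more than 5000 bp from one. Summits lay within 250 bp of a start site in 41.4% (38.2 to 44.8%). Of the 689 genes, 523 (75.9%, 72.6 to 79.0%) had a vehicle interval elsewhere in the gene body or the 10 kb around it. Over all 20807 protein-coding genes the share was 81.2%, but 13759 of them had a vehicle promoter peak and meet this by definition. The 75.9% and the 81.2% are therefore not a like comparison. Of the 689 genes, 549 had 1 TAMo-only promoter interval and the others had more.

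At genes with a vehicle promoter peak the 3004 intervals had a median coverage of 78 reads (quartiles 44 and 128) over a median background of 26.9 reads. Since a vehicle peak in the same promoter defines them, a short distance to vehicle peaks is set by the rule: the median was 176.5 bp, with 45.8% (44.0 to 47.6%) within 150 bp and 78.9% (77.4 to 80.3%) within 500 bp. Summits within 250 bp of a start site made up 16.6% (15.4 to 18.02%), against 56.7% (56.0 to 57.4%) of shared promoter peaks. Their most common position was 600 to 700 bp downstream of the start, with 6.89% of the intervals, and 56.6% (54.8 to 58.3%) of the summits lay in introns. When a vehicle interval within 500 bp counted as shared, 559 genes with an additional site were left, whereas 673 genes with no vehicle promoter peak were left.

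**Figure D2:**
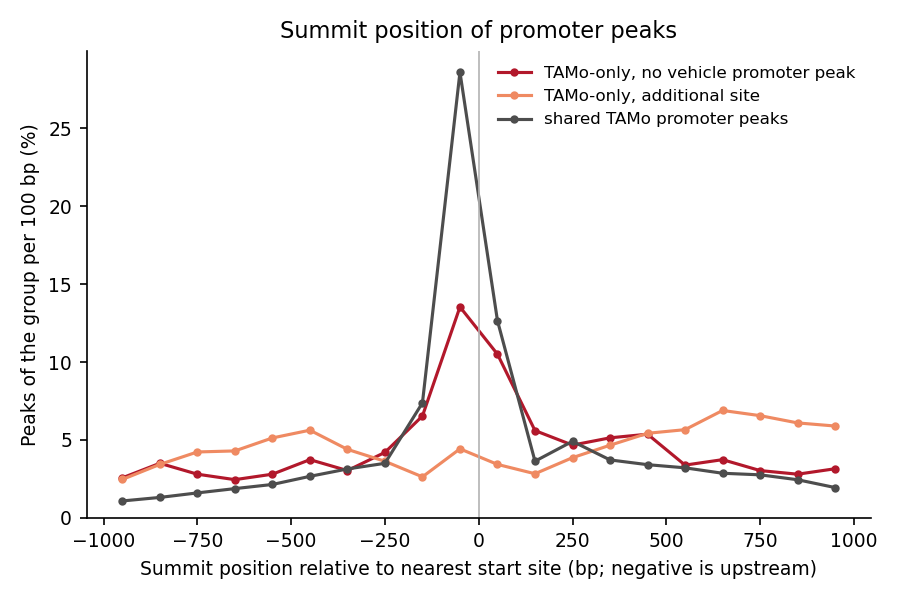
Position of the summit relative to the nearest start site (bp, negative is upstream) on the horizontal axis and the share of each group of promoter peaks per 100 bp (%) on the vertical axis, in the TAMo library. Shared peaks and TAMo-only peaks at genes with no vehicle promoter peak are highest in the 100 bp before the start, with 28.6% and 13.5%, where additional sites have 4.43%.

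**Figure D3:**
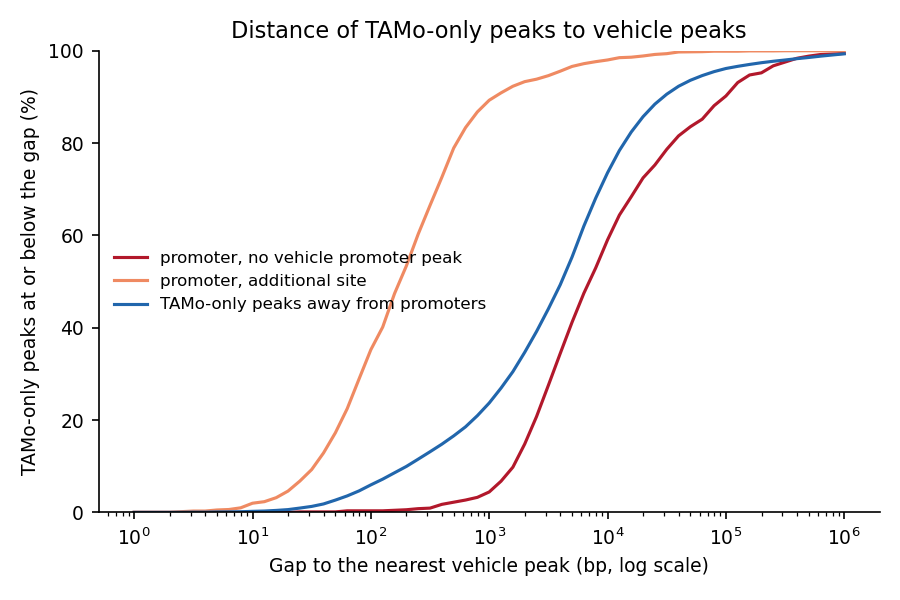
Cumulative share of TAMo-only peaks (%, vertical axis) by distance to the nearest vehicle peak (bp, log scale, horizontal axis) for members at genes with no vehicle promoter peak, for additional sites, and for TAMo-only peaks away from promoters. Within 500 bp lie 78.9% of additional sites, 2.22% of members at genes with no vehicle promoter peak and 16.6% of TAMo-only peaks away from promoters.

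Few intervals lay at the edge of the overlap rule. The 60 members whose gap to a vehicle interval was at most 10 bp had a median coverage of 89.5 reads, and the 13 shared promoter peaks that overlapped by at most 10 bp had 55 reads. The smallest gaps were 1 bp at Slc7a11, the cystine transporter gene (25 reads), and 2 bp at B4galt7 (89 reads) and Rps9 (132 reads). By −log10 q the weakest members were at Anxa4, Fmod and Hoxa11, with 1.46, 1.46 and 1.53. Across chromosomes the member share of TAMo promoter peaks ran from 12.8% on chromosome 16 to 17.5% on chromosome 7.

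The main promoter peak of a gene is taken here as its strongest vehicle promoter peak and its strongest TAMo promoter peak that overlapped any vehicle interval. Where these main peaks overlapped each other, they were nearly level between the libraries at genes with an additional site. Scaled by background, its log2 ratio of TAMo over vehicle coverage had a median of 0.06 (quartiles −0.12 and 0.30) over 2462 genes, against 0.03 (−0.13 and 0.21) over 10560 other genes. A ratio above 1 was seen in 5.93% and 3.19% of genes. A vehicle-only promoter interval was also present at 9.16% (8.12 to 10.3%) of genes with an additional site, and at 9.26% (8.79 to 9.76%) of all genes with a vehicle promoter peak.

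At 47 of the 2664 genes, 1.76%, no TAMo promoter peak overlapped a vehicle interval. The promoter peaks of the libraries thus lay at different sites, except that the vehicle promoter peak of Olfr524 (112 reads) overlapped a TAMo interval that did not reach the promoter window. The strongest was Acvrl1, which encodes ALK1, a type I receptor of the TGF-β family best known in endothelial cells. Its TAMo peak had 419 reads (chr15:101132959-101133632, intronic) and its vehicle peak 25 reads (chr15:101128545-101128789), 4169 bp apart. At Rnase12, of the ribonuclease A family, the peaks had 330 and 22 reads and lay 973 bp apart. Lower down, Rnf112 had 60 and 19 reads and Olfr11 58 and 23 reads.

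Among genes with no vehicle promoter peak, the 12 strongest peaks by −log10 q ranged from 184 reads to 572 reads. Sec14l3, of the SEC14 family of lipid-binding proteins, came first with 572 reads over a background of 22.2 reads. Its interval is chr11:4064660-4065340, in an intron 325 bp downstream of the start, and the nearest vehicle interval lay 10765 bp away. Cd300c, a receptor gene of myeloid cells, had 553 reads over 23.0 reads at chr11:114958795-114959524, 5945 bp from a vehicle interval. This summit lay in an intron 1250 bp downstream of the start, so only part of the interval reached the 1 kb window. Psapl1, a prosaposin-like gene, had neighbouring intervals of 459 and 383 reads, with summits 1036 and 478 bp upstream of its start.

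Klhl35 had 487 reads and Olfr61, an olfactory receptor gene, had 366 reads. Orm3, an orosomucoid gene of the acute-phase response, had 3 intervals of 477, 145 and 233 reads, and its neighbour Orm2, outside the strongest 12, had 246 reads. Mmrn2, which encodes an extracellular matrix protein of endothelium, had 320 reads in an intron, and Prelp, which encodes a matrix protein of connective tissue, had 263 reads 872 bp upstream of its start. The Orm genes are near-identical copies, and the sources used here do not say how reads were divided between copies.

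Gpr84, a receptor for medium-chain fatty acids on myeloid cells, had 319 reads at chr15:103310421-103311119, 201 bp upstream of its start. Rgs18, a regulator of G protein signalling in platelets and other blood cells, had 206 reads 96 bp upstream and a weaker interval of 27 reads. Csta1, of the stefin family of cysteine protease inhibitors, had 256 reads, with the summit 1337 bp upstream of its start. Try5, a trypsin gene, had 184 reads.

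The 8 strongest additional sites, ordered by −log10 q, had between 263 and 692 reads, and the main promoter peaks beside them ranged widely. P3h1, which encodes a collagen prolyl hydroxylase, had an additional intronic site of 690 reads, beside a main promoter peak of 857 reads in vehicle and 1093 reads in TAMo. Here and below, the main peaks of a gene in the 2 libraries need not overlap each other. Tctex1d4 had 692 reads beside 708 and 998 reads. Cd55, the complement decay-accelerating factor, had 439 reads 1092 bp upstream, beside 397 and 590 reads, and Bnip2 had 447 reads beside 309 and 467 reads. At Rabgef1, a regulator of endosomal trafficking, the site of 263 reads lay 50 bp from a vehicle interval, beside 433 and 775 reads. Prmt2, an arginine methyltransferase gene, had 407 reads beside 495 and 680 reads. The order was the other way at Btbd16, where the site of 384 reads stood above a main peak of 107 reads in vehicle and 200 reads in TAMo. Acvrl1, described above, had 419 reads, a vehicle promoter peak of 25 reads and no shared promoter peak.

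**Figure D4:**
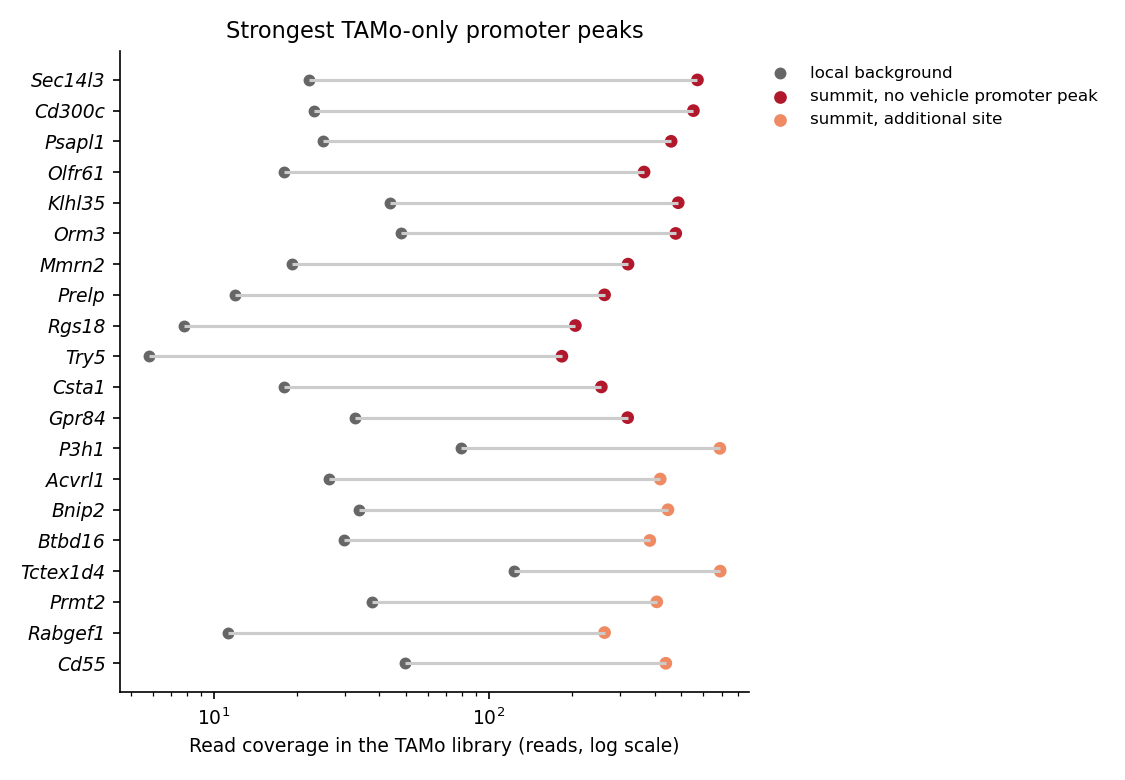
Summit coverage (coloured) and local background (grey) in the TAMo library, in reads on a log axis, for the strongest TAMo-only promoter peak of 12 genes with no vehicle promoter peak (red) and 8 genes with an additional site (orange). Summits run from 184 reads at Try5 to 692 reads at Tctex1d4, each far above its background.

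A few promoters held many members. Nkx2-9, a homeobox gene, had 6 intervals of 19 to 27 reads and no vehicle interval nearer than 70660 bp. Mmp9, which encodes the gelatinase MMP-9 of neutrophils and macrophages, had 5 intervals of 41 to 75 reads, and Slit1, an axon guidance gene, had 4 intervals, the strongest of 153 reads. Among additional sites, Sla, which encodes the T cell adaptor SLAP, had 5 intervals of 230 to 415 reads beside a main peak of 466 reads in vehicle and 784 reads in TAMo. Bmf, a proapoptotic BCL-2 family gene, had 4 intervals of 148 to 325 reads. Intervals so close together need not be separate sites. The widest members were at Fam198b (1075 bp), Cyp2j9 (1006 bp) and Fermt1 (977 bp).

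Every gene of the 5 T cell lists had a vehicle promoter peak, so a member there is an additional site by definition. The lists used here, 21 in number with 421 genes found, were set with earlier results of these data known, so their counts are set beside the share over all genes, 16.1%, with no test. These 5 hold 18 T cell identity genes, 20 effector genes, 21 inhibitory receptor and exhaustion genes, 16 naive, memory and stem genes and 26 activation genes. Additional sites were at 4, 6, 4, 8 and 6 of these genes in the same order, or 22.2%, 30%, 19.0%, 50% and 23.1%. The 16.1% is not a like comparison, since a gene without a vehicle promoter peak cannot have an additional site. Over all 20807 genes, 13759 had a vehicle promoter peak, and 2664 of these had an additional site. For the naive, memory and stem genes the 95% Wilson interval, 28.0 to 72.0%, lay above 16.1% and above the share that 2664 is of 13759. For each of the other T cell lists the interval held both of these shares.

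Among the naive, memory and stem genes with a member were Lef1, Bcl2, Bach2, Tcf7, Bcl6, Il7r and Foxo1. Lef1, which encodes a factor of naive and memory T cell programmes, had a row of 3 additional sites upstream of its start, of 437, 270 and 311 reads, while its main peak had 558 reads in vehicle and 496 reads in TAMo. Bcl2, a survival gene, had a site of 211 reads 1011 bp upstream. Bach2, a repressor that restrains effector differentiation, had sites of 77 and 52 reads at an internal start, 3905 and 3719 bp from a vehicle interval. Tcf7, which encodes TCF-1, had a site of 179 reads in an exon, 156 bp from a vehicle interval.

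In the T cell identity list, Cd8a, the coreceptor gene, had a site of 274 reads 786 bp upstream of its start (chr6:71372494-71372790), beside a main peak of 551 reads in vehicle and 654 reads in TAMo. Thy1 had a site of 222 reads beside 506 and 371 reads, so its main peak was the lower one in the deeper library. Lat, a signalling adaptor gene, had a site of 133 reads.

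Among effector genes, Gzmm, which encodes granzyme M, had a site of 138 reads 262 bp upstream, above its main peak of 34 reads in vehicle and 85 reads in TAMo. Fasl, the Fas ligand gene, had an intronic site of 89 reads and the chemokine gene Ccl3 one of 109 reads. Zeb2, a transcription factor of terminal effector cells, had 4 sites of 42 to 95 reads at more than 1 start. In the inhibitory and exhaustion list, Nr4a1, an early gene of receptor signalling, had 3 intronic sites of 111, 107 and 85 reads beside a main peak of 714 and 753 reads. Rbpj had a site of 265 reads, Cd101 one of 106 reads and Cd160 one of 79 reads.

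In the activation list, Il2, which encodes interleukin 2, a growth factor of T cells, had a site of 184 reads 198 bp upstream of its start (chr3:37126054-37126271), above a main peak of 75 reads in vehicle and 164 reads in TAMo. Tnfrsf4, which encodes the costimulatory receptor OX40, had a site of 249 reads beside 173 and 286 reads. Cd69, an early activation marker, had 231 reads and Nfkb1 had sites of 210 and 113 reads.

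Tnfrsf18 lies beside Tnfrsf4 and was the 1 gene of 20 in the TNF receptor superfamily with a member and no vehicle promoter peak. Its interval had 334 reads at chr4:156026148-156026397 over a high background of 91.7 reads, and the promoter sequence shown above overlaps it. In that family 7 of 20 genes, 35%, had a member.

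The granzyme genes, named after their values were seen, differed along their cluster on chromosome 14. Gzme had 162 reads (chr14:56120559-56120927, summit 139 bp upstream), Gzmf 27 reads (136 bp upstream) and Gzmg 21 reads (822 bp downstream), and none of these had a vehicle promoter peak. Gzmb, the main cytotoxic granzyme gene at the same cluster, had 1048 reads in vehicle and 1181 reads in TAMo and no member, Gzmc had 32 and 68 reads, and Gzmd and Gzmn had no promoter peak in either library. The granzyme genes of this cluster are close copies, so the same limit on divided reads applies.

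Interferon response genes had a member at 7 of 24, 29.2%. Of these, Oas2, an antiviral oligoadenylate synthetase, had 41 reads 81 bp upstream and Ifi44 28 reads at its start, both with no vehicle promoter peak. Isg20, an exonuclease gene, had an additional site of 361 reads, Oas3 one of 226 reads, Isg15 one of 192 reads and Irf9 one of 145 reads. Cytokines and chemokines had a member at 5 of 39, 12.8%. Il22, a cytokine of barrier tissues, was the 1 of these 5 with no vehicle promoter peak, at 26 reads.

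Metabolic and cell cycle lists held additional sites only. Glycolysis and hypoxia genes had a member at 5 of 22, with 442 reads at Gpi1, a glycolytic isomerase, and 140 reads at Adm. Amino acid, arginine and stress genes had one at 4 of 20, with 147 reads at Hmox1, which encodes haem oxygenase 1, and 37 reads at Arg1, which encodes arginase 1, where the vehicle promoter peak had 21 reads. Cell cycle genes had one at 6 of 28, with 121 reads at Ccnd1, which encodes cyclin D1, beside a main peak of 80 reads in vehicle and 359 reads in TAMo. In the apoptosis and p53 list, 4 of 20 had one. Cdkn1a, which encodes the cell cycle inhibitor p21, had 614 reads at an annotated start (chr17:29090814-29091298), 2215 bp from a vehicle interval. Its main promoter peak had 706 reads in vehicle and 926 reads in TAMo. Bax had a site of 203 reads.

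Cytokine and chemokine receptors, with 4 of 31, TGF-β and regulatory T cell genes, with 1 of 20 (Pmepa1, 198 reads), and housekeeping genes, with 2 of 18, had shares of 12.9%, 5% and 11.1%. Il4ra had sites of 220 and 183 reads, Il2rb, the β chain of the IL-2 receptor, one of 244 reads and Ccr9 one of 71 reads. Among the housekeeping sites was one at Actb (202 reads). These shares lay below the 16.1% over all genes, on few genes each. Their 95% Wilson intervals, 5.13 to 28.9%, 0.888 to 23.6% and 3.10 to 32.8%, all held 16.1%. A vehicle promoter peak was present at 30, 18 and 18 of these genes in the same order. The 16.1% is therefore not a like comparison here either.

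Of the 18 list genes with a member and no vehicle promoter peak, 15 were in the 7 lists of other cell types. Every gene of the T cell lists had a vehicle promoter peak and could not be of this kind. The lists themselves thus largely set this split. In the myeloid list genes of this kind were 7 of 37, 18.9%, against 3.31% of all genes. A vehicle promoter peak was present at 15 of the 37 myeloid genes and at 13759 of all 20807 genes. A larger part of the myeloid list could therefore be of this kind. Counted only over genes without a vehicle promoter peak, the myeloid share was still above that over all genes, on few genes and with no test. Cd300c had 553 reads 1250 bp downstream of its start. Itgam, which encodes CD11b, had 118 reads at its start, and Csf1r, the receptor for M-CSF, 100 reads at its start. The Fc receptor genes Fcgr3 and Fcgr4 had 52 and 35 reads. At Fcgr3 that summit lay 1050 bp upstream, and weaker intervals of 24 and 27 reads lay nearer to the start. Adgre1, which encodes F4/80, had 31 reads and Trem1 22 reads. Cebpa and Sirpa had additional sites of 52 and 29 reads. The reverse was seen at Fcgr1, which encodes an Fc receptor, and Mrc1, the mannose receptor gene of macrophages, which had promoter peaks of 18 and 16 reads in vehicle and none in TAMo.

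In the B cell list, 2 of 12 genes were of this kind: Blnk, an adaptor of the B cell receptor, with 103 reads and Pax5, the B cell identity factor, with 30 reads. Cd79a and Fcrla had no promoter peak in either library. In the erythroid and platelet list they were 3 of 11: Slc4a1, which encodes the red cell anion exchanger, with 93 reads, and the platelet glycoprotein genes Gp1bb and Gp9 with 54 and 25 reads. The globin genes Hbb-bs, Hbb-bt and Hba-a1, with Pf4 and Itga2b, had none in either library. In the endothelial and stromal list they were 3 of 18: Mmrn2, Prelp and Lum, a collagen-binding matrix protein gene, with 33 reads. Cdh5, Tek, Vwf, Col1a2, Col3a1 and Dcn had none in either library. After depth scaling the summed promoter coverage of these lists was 1.16, 1.18 and 1.20 times that of the vehicle library.

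NK and innate lymphoid genes had a member at 0 of 12, the dendritic cell list at 1 of 12 (Ciita, 24 reads) and the epithelial list at 2 of 12 (Grhl2, 42 reads, and Ocln, 66 reads), none of them without a vehicle promoter peak. Their depth-scaled sums were 0.985, 1.28 and 1.39 times that of the vehicle library.

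**Figure D5:**
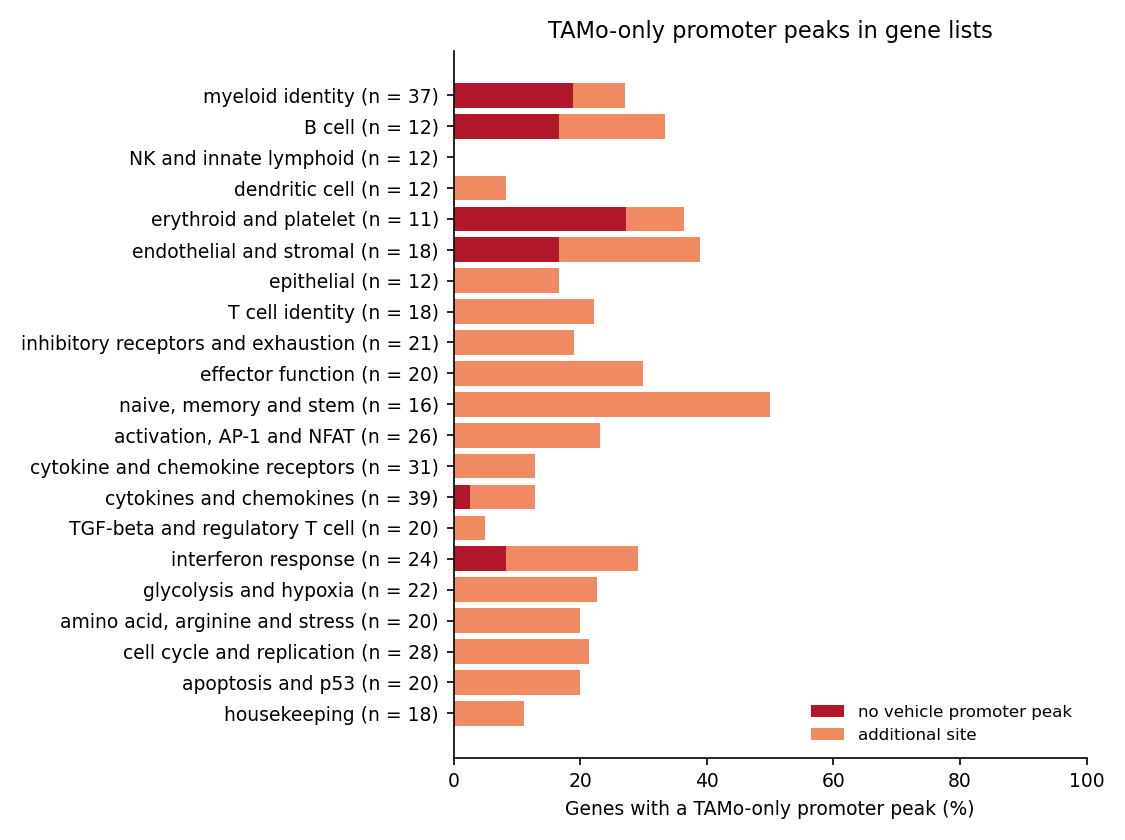
Share of the genes of each of 21 lists with a TAMo-only promoter peak (%, horizontal axis), divided into genes with no vehicle promoter peak (red) and genes with an additional site (orange). The number of genes is given as n, and the share over all genes, not drawn, was 16.1%. Red parts appear in the myeloid, B cell, erythroid and platelet, endothelial and stromal, cytokine and interferon lists, and the bar for NK genes is empty.

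Gene families are read against the same shares over all genes, 16.1% with a member and 3.31% with a member and no vehicle promoter peak. Olfactory receptors, the odorant receptors of the nose, numbered 1128 genes, of which 100 had a TAMo and 36 a vehicle promoter peak. A member was found at 75, 6.65%. Of these 75, 68 genes, 6.03% of the family, had no vehicle promoter peak and are among the 689. That share was above 3.31%, but only 36 of 1128 receptor genes had a vehicle promoter peak, against 13759 of all 20807 genes. A larger part of the family could therefore be of this kind. Counted only over genes without a vehicle promoter peak, the share was lower in this family than over all genes. The 87 intervals of these 68 genes, on 14 chromosomes, had a median coverage of 30 reads (16 to 366), 67 of them at the most frequent background. Their median distance to a vehicle interval was 48171 bp. Only 24 of the 87 summits lay within 250 bp of a start, 27.6%, against 41.4% of all members at genes with no vehicle promoter peak. Olfactory receptor genes form large families of similar sequence, so the limit on divided reads applies here too.

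Hox genes, the homeobox genes that pattern the body axis, had a member at 15 of 39, 38.5%. Of these 15, 5 genes, 12.8% of the family, had no vehicle promoter peak. Hoxa11 had a site of 241 reads 248 bp upstream of its start, beside a main peak of 35 reads in vehicle and 93 reads in TAMo, and Hoxd10 had intervals of 62 and 39 reads with no vehicle promoter peak. Solute carriers, the membrane transporters, had a member at 64 of 372, 17.2%. Of these 64, 16 genes, 4.30% of the family, had no vehicle promoter peak. Both shares were near those over all genes. G protein-coupled receptors of the Gpr and Adgr names had one at 19 of 89, 21.3%, with 9 genes, 10.1% (5.41 to 18.1%), without a vehicle promoter peak. Such a peak was present at 49 of these 89 genes, against 13759 of all 20807 genes. A larger part of these receptor genes could thus be of that kind. Gimap genes, GTPases of lymphocytes, had one at 4 of 8, each an additional site: Gimap5 had 241 reads, Gimap9 211 reads and Gimap8 191 reads. Zinc finger Zfp genes had one at 75 of 385, 19.5%, and 5 of these 75 had no vehicle promoter peak. Mitochondrial ribosomal protein genes had one at 9 of 78, 11.5%, each an additional site.

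Some genes with a member and no vehicle promoter peak lay near others of the same kind. With start sites up to 200 kb apart, 219 of the 689 genes fell into 86 runs, 26 of them with 3 genes or more. Genes of other kinds can lie between the genes of a run. The longest run held 7 olfactory receptor genes, from Olfr694 to Olfr713, between 106691814 and 107031174 on chromosome 7. Other runs were the myeloid receptor genes Trem1, Trem3 and Treml4 with Apobec2 on chromosome 17, the Fc receptor genes Fcgr4 and Fcgr3 with Adamts4 on chromosome 1, and Prelp and Fmod, both small leucine-rich proteoglycan genes, with 3 further genes on chromosome 1. Similar genes lie side by side in the genome, so neighbours are not independent, and the number of runs was not compared with chance.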

How the data were processed

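Per the labels' protocols, a Vazyme TruePrep kit was used for the ATAC-seq libraries, sequenced on a HiSeq X with paired 150 bp reads. Trimmomatic 0.36, Bowtie2, MACS2 and build mm10 are named by the submitters' processing notes; the sources used here give no settings for read shifting, duplicates, multiply mapped reads or peak calling. Each library has its own deposited peak list (163215 rows for vehicle, 225656 for TAMo), with no pooling of reads. Each row holds, per the deposited values, an interval, a score that follows the q-value, a fold enrichment (a ratio set by the authors' caller), a −log10 p, a −log10 q and a summit offset. Rows with the same interval were joined into 1 peak at its strongest summit. Lowest −log10 q values were 1.32 and 1.34, and the narrowest peaks 150 bp.

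Whole read coverage and background at summits were recovered from the deposited fold and −log10 p, within 1% of the step between whole coverages; 30 vehicle and 48 TAMo rows gave none, and all 3861 members gave one. The recovery and the overlap steps were tested on simulated data. Peaks and genes lay on chromosomes 1 to 19; start sites came from GENCODE M21 basic, every annotated transcript counted. A summit in an exon or intron may lie in any annotated gene. Python 3.11.15, pandas 2.3.3, numpy 2.4.6 and scipy 1.17.1 were used. With 1 library per group no test was made between groups; 95% Wilson intervals cover counting error only, since reads are not independent molecules.

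The members, gene lists and families were chosen with earlier results of these data known; the pattern for histone genes was corrected after its first matches were seen. Of 424 list genes, 421 were found; Clec7a, Cxcl11 and Gata1 were not. Single values of some list genes are not reported here. Named genes are the 12 and 8 strongest of the 2 kinds, up to 4 per list and 3 per family by strength, up to 6 with 3 or more intervals, and the 3 weakest, 3 nearest to a vehicle interval and 3 widest members. Genes named beyond this rule (Orm2, the granzyme genes, the genes of runs, those with a site of their own in each library, further members of the lists, and the genes whose sequences are shown) were chosen after their values were seen, as were Fcgr1 and Mrc1. The alternatives were promoter windows of 500 and 2500 bp, sharing from 50% coverage or within 500 bp, a −log10 q of at least 10, equal list lengths and 1 start site per gene.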

Additional observations from a re-analysis of the deposited data

How the results depend on the processing

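Every value below is a count or share from 1 library per group, and the main values were 3861 members, 15.7% of TAMo promoter peaks, 689 genes with no vehicle promoter peak, 2664 genes with an additional site, 22.1% of members within 250 bp of a start and 1321 vehicle-only promoter peaks. The number of genes with no vehicle promoter peak stayed within 1.5 times in 6 of the 7 alternatives; equal list lengths, which remove the weakest TAMo peaks, gave 310. That setting also gave 1709 members, 8.27%, 1353 genes with an additional site, 19.2% within 250 bp and 2607 vehicle-only peaks. A window of 500 bp gave 2158 members, 11.1%, 1336 genes with an additional site, 39.6% within 250 bp and 776 vehicle-only peaks, and a window of 2500 bp gave 6860, 21.1%, 4563, 12.5% and 2227. Counting peaks within 500 bp as shared gave 1473 members, 5.9995%, 559 genes with an additional site, 34.8% and 355. Sharing from 50% coverage gave 17.9% and 23.7% within 250 bp, and 1 start site per gene gave 14.3% and 19.7%. A −log10 q of at least 10 in both lists gave 828 vehicle-only peaks. No paired analysis was possible because each group has 1 library, and no replicate could be left out. Of the 759 members at the most frequent background, 744 reached the lowest coverage called in vehicle after depth scaling, a count largely set by the calling in TAMo. Of the same 759, 240 reached 2 times that coverage. The other members were not compared with such a limit.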
